A study of Mus musculus with 34 samples.

Results

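In bone marrow-derived dendritic cells (BMDCs) lacking CTCF, 12297 of 20807 protein-coding promoters on chromosomes 1 to 19 carried an H3K4me3 peak before LPS, after LPS or at both times. Of these, 11843 had a peak at both times, 123 had a peak only after LPS and 331 had a peak only before it. A promoter was the region of 2.5 kb to either side of a gene's start, taken from the longest transcript in GENCODE vM21 on GRCm38 (mm10), and it was counted when at least 1 bp was covered by a peak. The promoters with a peak only after LPS included those of Ifi205, Ifit3, Tgtp2, Ifi44, Cfb, Il27 and Il12b, while 96 of the 123, among them Hoxb5, Hoxb9 and Six2, carried the repressive mark H3K27me3 before LPS.

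Bone marrow of C57BL/6 mice aged 8 weeks was cultured for 6 days with GM-CSF, 4-hydroxytamoxifen was given to cells of both genotypes, and CD11c+ cells were taken with magnetic beads. CreER;CTCF fl/fl cells, in which the drug-induced recombinase deletes the floxed Ctcf alleles, are called CTCF-KO, and CreER cells with unfloxed Ctcf served as controls (CTCF-WT), so that the inducible recombinase and the drug were shared by the control cells. The 4 H3K4me3 lists come from untreated CTCF-KO cells (KO), CTCF-KO cells given 100 ng/ml LPS for 3 h (KOLPS), and CTCF-WT cells without (WT) and with LPS (WTLPS). There was 1 peak list per condition, hence no test between conditions was possible; intervals are 95% Wilson intervals and cover counting error only.

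H3K4me3 is placed by SET1/COMPASS and MLL enzymes at the starts of active genes, and CpG islands attract it even at genes that are little transcribed. Where Polycomb complexes add H3K27me3 to the same promoter, the promoter is called bivalent. LPS is sensed by TLR4, which signals through MyD88 to NF-κB and through TRIF to IRF3 and interferon-β. Secreted interferon then activates a complex of STAT proteins and IRF9, which binds the interferon-stimulated response element (ISRE) at promoters of antiviral genes. CTCF binds DNA and stops cohesin, which shapes the loops that bring enhancers and promoters together.

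The sequences of 7 KOLPS-only promoters are given as examples and do not stand for all 123. Each runs from 250 bases before to 50 bases after the start, 5′ to 3′ on the gene's strand, in GRCm38. In the first set, of interferon-regulated genes, capitals mark matches to the ISRE core (GAAANNGAAA), the κB consensus or the TATA box (TATAAA) on either strand. Ifi205 (chr1:174031761-174032060, minus strand) and Ifi44 (chr3:151749898-151750197, minus strand) had the 2 highest KOLPS values among the promoters with a peak only after LPS in both genotypes. Ifit3 (chr19:34583281-34583580, plus strand) and Tgtp2 (chr11:49064155-49064454, minus strand) had the next strongest KOLPS peaks after Ifi205, and were added after their values were seen.
Ifi205: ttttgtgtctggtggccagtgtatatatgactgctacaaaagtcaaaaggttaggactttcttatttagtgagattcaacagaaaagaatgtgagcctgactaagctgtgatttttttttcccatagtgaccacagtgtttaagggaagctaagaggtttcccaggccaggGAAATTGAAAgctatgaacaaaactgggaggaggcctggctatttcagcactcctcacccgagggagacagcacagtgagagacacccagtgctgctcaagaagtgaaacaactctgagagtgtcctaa
Ifi44: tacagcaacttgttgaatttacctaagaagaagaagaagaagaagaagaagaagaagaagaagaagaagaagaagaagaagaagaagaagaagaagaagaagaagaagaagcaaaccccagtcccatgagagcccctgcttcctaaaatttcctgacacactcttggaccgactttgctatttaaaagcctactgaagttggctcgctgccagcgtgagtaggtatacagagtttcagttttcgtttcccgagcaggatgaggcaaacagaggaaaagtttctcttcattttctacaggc
Ifit3: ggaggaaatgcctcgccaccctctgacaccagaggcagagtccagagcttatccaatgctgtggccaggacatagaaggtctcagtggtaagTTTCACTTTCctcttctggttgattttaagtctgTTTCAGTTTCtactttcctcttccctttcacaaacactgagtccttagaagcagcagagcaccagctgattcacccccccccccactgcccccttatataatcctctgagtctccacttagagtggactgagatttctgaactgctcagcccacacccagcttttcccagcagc
Tgtp2: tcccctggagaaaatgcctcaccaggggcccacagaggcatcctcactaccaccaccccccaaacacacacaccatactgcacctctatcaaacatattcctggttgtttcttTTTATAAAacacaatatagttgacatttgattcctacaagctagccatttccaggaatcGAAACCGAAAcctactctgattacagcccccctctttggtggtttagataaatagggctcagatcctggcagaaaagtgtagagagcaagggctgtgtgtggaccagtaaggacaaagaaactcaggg
Ifi205 and Tgtp2 held 1 ISRE match each, Ifit3 held 2 and Ifi44 held none in this window. Tgtp2 also held 2 overlapping TATA matches, 1 on each strand. Other windows were looked at after their values were seen and are not shown. Those of Il12b, Ifi206 and Ms4a4c held no match to these motifs, while those of Oas2, Tgtp1, Il27 and Cfb held at least 1.

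In the second set capitals mark CpG dinucleotides. Ism1 (chr2:139677928-139678227, plus strand) had a peak only after LPS in both genotypes. Ptprd (chr4:76449931-76450230, minus strand) and Ccdc3 (chr2:5137526-5137825, plus strand) had a peak in KOLPS and in no other list.
Ism1: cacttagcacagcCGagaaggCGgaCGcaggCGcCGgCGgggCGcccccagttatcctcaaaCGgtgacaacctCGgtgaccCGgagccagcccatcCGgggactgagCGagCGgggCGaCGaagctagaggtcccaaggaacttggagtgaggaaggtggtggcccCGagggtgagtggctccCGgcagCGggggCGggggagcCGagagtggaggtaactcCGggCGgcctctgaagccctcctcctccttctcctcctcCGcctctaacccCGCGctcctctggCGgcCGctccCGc
Ptprd: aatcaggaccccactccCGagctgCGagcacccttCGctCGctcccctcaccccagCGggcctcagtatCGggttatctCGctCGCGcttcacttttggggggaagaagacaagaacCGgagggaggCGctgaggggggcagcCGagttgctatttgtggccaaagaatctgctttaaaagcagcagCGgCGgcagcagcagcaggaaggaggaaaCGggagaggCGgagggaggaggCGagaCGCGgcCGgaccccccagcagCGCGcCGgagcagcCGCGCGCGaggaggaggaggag
Ccdc3: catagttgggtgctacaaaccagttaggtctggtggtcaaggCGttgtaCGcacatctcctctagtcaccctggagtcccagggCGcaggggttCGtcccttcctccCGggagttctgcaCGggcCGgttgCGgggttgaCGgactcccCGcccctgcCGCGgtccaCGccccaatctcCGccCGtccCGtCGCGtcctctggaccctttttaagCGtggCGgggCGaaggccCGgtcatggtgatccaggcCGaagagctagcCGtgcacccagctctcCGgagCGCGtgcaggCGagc
The CpG-marked windows held 28 CpGs in Ism1, 27 in Ptprd and 28 in Ccdc3. The windows of the first set held 1 CpG in Ifi205, 5 in Ifi44, 1 in Ifit3 and 2 in Tgtp2.

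The lists and the cells behind them were examined first. Genome-wide, 25460 peaks were called in KO and 20960 in KOLPS, compared with 24135 in WT and 23314 in WTLPS. The background at called peaks, recovered from the deposited fold and p-value, was 1.2 fragments per base in KO, 1.13 in KOLPS, 1.23 in WT and 1.15 in WTLPS, while the smallest called peak had 6 fragments at its summit in every list. KOLPS peaks were weaker: at the 11843 shared promoters the median fold over background was 26.4 in KO and 19.7 in KOLPS. Over those of the same promoters that had a peak there, it was 29.1 in WT and 29.2 in WTLPS. Of 19 myeloid and dendritic cell markers, 18 had a promoter peak in both KO and KOLPS, and Cd209a had none. A peak in both was also found at 2 of 10 T cell, 2 of 8 B cell, 1 of 5 NK cell, 2 of 10 neutrophil, 2 of 7 mast cell and basophil and 3 of 5 erythroid markers. The share over all promoters was 56.9%. No marker changed class, and few promoters did (0.591% KOLPS-only and 1.59% KO-only). CTCF peaks were called at 20% of all promoters in KO and 10.7% in KOLPS, beside 30.6% in WT and 28.3% in WTLPS, so the CTCF-KO lists still held CTCF peaks. The Ctcf promoter itself had an H3K4me3 peak in all 4 lists, which is no check of the deletion.

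KO cells had a peak at 12174 promoters and KOLPS cells at 11966. The shared class of 11843 promoters made up 97.3% of KO promoters (97 to 97.6%) and 56.9% of all promoters. KOLPS-only promoters numbered 123, or 0.591% of all promoters (0.496 to 0.705%), and KO-only promoters numbered 331, or 1.59% (1.43 to 1.77%). In CTCF-WT cells 12058 promoters had a peak before LPS and 12139 after it, and 11898 had both (57.2%). There 241 promoters were WTLPS-only (1.16%) and 160 were WT-only (0.769%). Hence the KO-only class exceeded the KOLPS-only class in CTCF-KO cells, and the order was the opposite in CTCF-WT cells. When the called peak had to reach a −log10 q of 10, the counts were 44 KO-only against 3 KOLPS-only, and 23 WT-only against 19 WTLPS-only, which is the other order in CTCF-WT cells. Without promoters whose peak overlapped a peak of the other list outside the window, the same limit gave 13 KO-only against 3 KOLPS-only, and 2 WT-only against 13 WTLPS-only. With KO thinned to the lower background of KOLPS, the expected counts were 322 KO-only and 128 KOLPS-only. The part of the lower fold of KOLPS peaks in these counts was not tested.

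**Figure D1:**
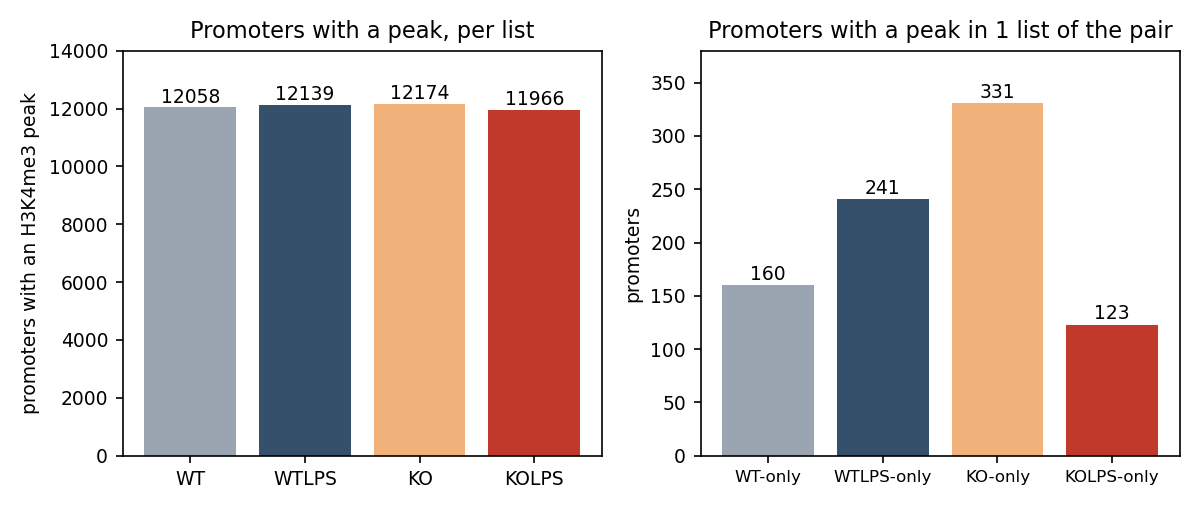
Left, the number of protein-coding promoters (y axis) with an H3K4me3 peak in each of the 4 lists (x axis), 1 list per condition. Right, the number of promoters with a peak in only 1 list of each pair: KO-only (331) is the tallest bar and KOLPS-only (123) the lowest.

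Peaks at the KOLPS-only promoters were small. Strength is given as the −log10 q of the strongest peak at a promoter, the peak caller's p-value adjusted over the genome, which depends on the depth of its list. At these promoters it ran from 1.38 to 16.7 with a median of 3.49, while the median over all promoters with a KOLPS peak was 46.2. The median summit height was 8 fragments, and 95 of the 123 (77.2%) had at most 9 fragments, close to the smallest height that was called. A median of 305 bp of the promoter was covered, compared with 2535 bp at the shared promoters in KOLPS. The summit lay inside the window at 120 of 123 promoters, and a median of 479 bp from the start. At the limit of calling, Npnt, Cfap70 and Pitpnm3 had the lowest KOLPS −log10 p among KOLPS-only promoters, 3.29, 3.41 and 3.51, and Lgi3 and Tfap2e were among the lowest of the shared promoters, with 3.55 and 3.6.

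The 3 strongest KOLPS-only promoters were those of Ifi205, Ifit3 and Tgtp2. Ifi205, an interferon-inducible member of the PYHIN family of DNA-sensing proteins (start at position 174031810 of chromosome 1), had no peak in WT or KO, a −log10 q of 52.6 in WTLPS and 16.7 in KOLPS. Its KOLPS peak covered 2081 bp of the promoter. Ifit3, which encodes an antiviral protein with tetratricopeptide repeats (chromosome 19, start at 34583531), had 1.67 in WT, 27.9 in WTLPS, no peak in KO and 15.4 in KOLPS. Tgtp2, an interferon-induced GTPase (chromosome 11, start at 49064204), had 6.07 in WT, 34.4 in WTLPS, no peak in KO and 15.4 in KOLPS. These 3 were the KOLPS-only promoters with a −log10 q of at least 10. Ifi44, another interferon-induced gene (chromosome 3, start at 151749947), had 11.8 in WTLPS and 8.47 in KOLPS and no peak without LPS in either genotype. Phf11a had 4.17 in WT, 24.5 in WTLPS and 6.37 in KOLPS. Oas2, which makes the 2′-5′ oligoadenylates that activate RNase L, had 10.6 in WT, 38.3 in WTLPS and 5.85 in KOLPS. Ms4a4c had 10.7 in WTLPS and 2.62 in KOLPS. At each of these 7 promoters the KOLPS value was below that of WTLPS, as it was at 92.7% of the 11772 promoters with a peak in both lists.

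Among the cytokine, chemokine and LPS effector lists (29, 20 and 34 genes), 5 promoters were KOLPS-only, beside 0.591% of all promoters. Il12b, the p40 chain shared by IL-12 and IL-23 (chromosome 11, start at 44400063), had no peak in WT or KO, 10.7 in WTLPS and 6.37 in KOLPS. Il27, the p28 chain of IL-27, had 10.1 in WT, 36.1 in WTLPS and 7.39 in KOLPS. Cfb, complement factor B, had 8.11 in WT, 41.7 in WTLPS and 8.4 in KOLPS. Il33, a cytokine released from damaged cells, had 5.34 in WTLPS and 2.62 in KOLPS, and its promoter carried H3K27me3 in KO. Cxcl3, a chemokine that attracts neutrophils, had 17.4 in WT, 19.2 in WTLPS and only 1.81 in KOLPS. Outside these lists, Tgm2, a transglutaminase, had 18.1 in WT, 44.5 in WTLPS and 7.35 in KOLPS. Il27, Cfb, Cxcl3 and Tgm2 therefore had a peak before LPS in CTCF-WT cells and none in CTCF-KO cells.

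Further promoters among the 15 highest-ranked KOLPS-only ones were Has2, Ism1, Rsph4a, Htr6 and Aox1. Has2, which encodes a hyaluronan synthase, had 8.47 in KOLPS and 3.29 in WT, with no peak in WTLPS or KO. Ism1 had 7.4 in KOLPS and 5.34 in WTLPS. Rsph4a had 7.4 in KOLPS, 5.1 in WT and 2.61 in WTLPS. Htr6, a serotonin receptor, had 6.98 in KOLPS, 4.21 in WT and 2.81 in WTLPS. Aox1, an aldehyde oxidase, had 6.37 in KOLPS, 8.11 in WT and 10.7 in WTLPS. At Ism1, Rsph4a and Htr6 the KOLPS value was above that of WTLPS, and at Aox1 below it.

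**Figure D2:**
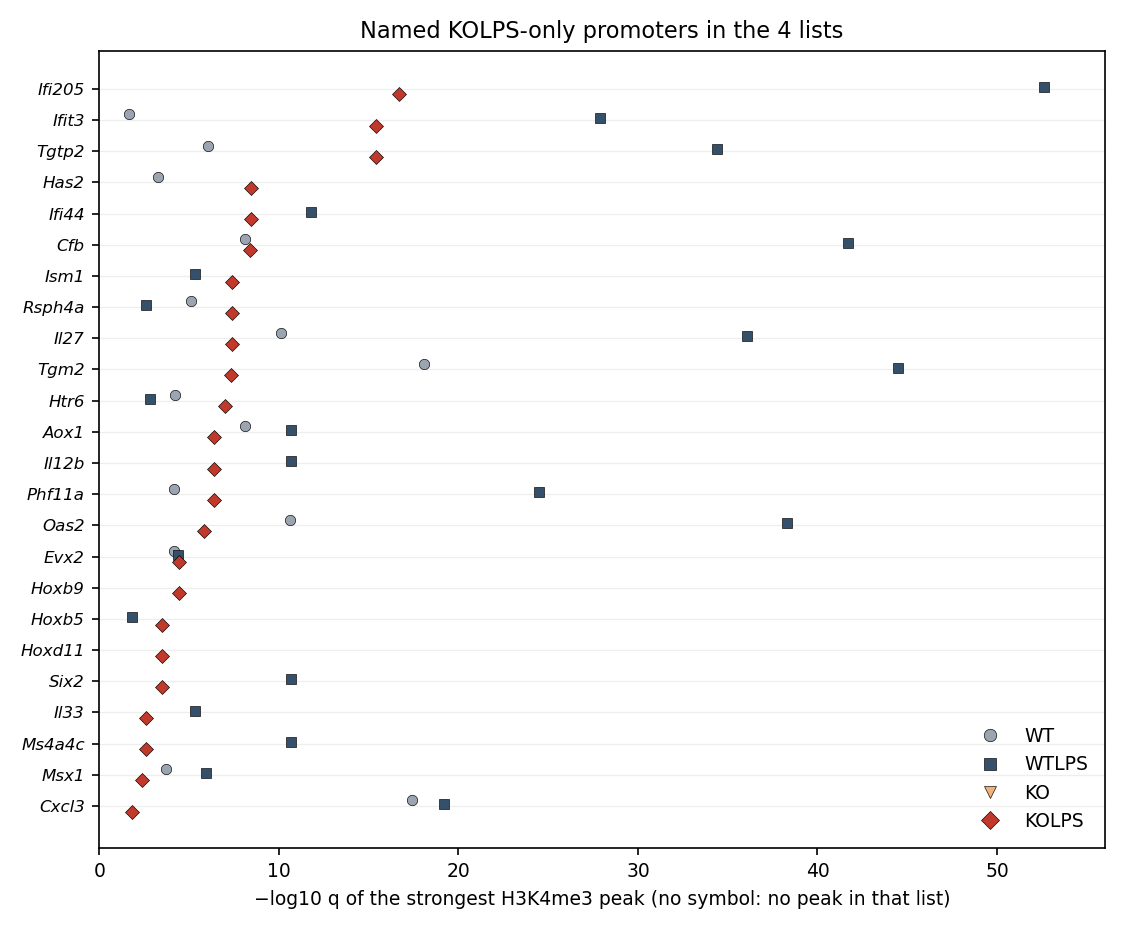
The −log10 q of the strongest H3K4me3 peak (x axis) at 14 of the 15 highest-ranked KOLPS-only promoters and at members of the gene lists that were KOLPS-only (y axis), 1 symbol per list; no promoter has a KO symbol, since none had a KO peak. WTLPS exceeds KOLPS widely at Ifi205 (52.6 against 16.7) and Cfb (41.7 against 8.4), while Hoxb9 and Hoxd11 have a symbol for KOLPS alone.

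H3K27me3 divided the 123 KOLPS-only promoters into a large and a small group. A peak of H3K27me3 in KO was present at 96 of them, 78%, compared with 28.7% of all promoters. H3K27ac, a mark of active promoters and enhancers, was present in KO at 13 of the 123 (10.6%, against 45.9% of all promoters) and in KOLPS at 16 (13%, against 42.2%). At shared promoters the shares were the reverse, with 24.7% for H3K27me3 and 76.2% for H3K27ac in KO. The 241 WTLPS-only promoters resembled the KOLPS-only ones, with H3K27me3 in KO at 180 and H3K27ac in KO at 21, so this profile was not particular to CTCF-KO cells. Of the 96 promoters with H3K27me3, 1 had H3K27ac in KO or KOLPS, namely Tgm2. Of the 27 without it, 16 had H3K27ac, among them Ifi205, Ifit3, Tgtp1, Tgtp2, Ifi206, Phf11a, Cfb, Il12b, Il27, Cxcl3, Ms4a4c, Slpi and Trem3. H3K27ac was present before LPS in KO at 12 of those 16, and appeared with LPS at Ifi205, Ifi206, Il12b and Ms4a4c. The group with H3K27me3 had the weaker peaks: a KOLPS −log10 q of at least 5 was reached at 17 of the 96 and at 11 of the 27. At the 3 promoters with a −log10 q of at least 10 the profile was reversed, with H3K27me3 in KO at 0 and H3K27ac in KOLPS at 3.

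The 96 and the 27 promoters also differed in DNA sequence. The CpG observed to expected ratio, counted over 500 bp to either side of the start, had a median of 0.658 (quartiles 0.532 and 0.793) with H3K27me3 and of 0.221 (0.118 and 0.318) without it, and the median over all promoters was 0.561. Over the KOLPS-only promoters together the median was 0.601, beside 0.585 over the WTLPS-only promoters. A ratio of 0.6 or more, as CpG islands have, was found at 62 of the 96 (64.6%) and at 0 of the 27. It was found at 46.8% of all promoters and at 75.2% of the shared ones. The ISRE core was found at 7 of the 27 promoters without H3K27me3 (25.9%, 13.2 to 44.7%), at 3 of the 96 with it (3.12%), and at 3.58% of all promoters. The 7 were Ifi205, Ifit3, Tgtp1, Tgtp2, Il27, Phf11a and Gm6904, and Oas2 was among the 3. The κB consensus was found at 2 of the 27, Cfb and Cxcl3, each with 2 matches, at 16 of the 96 (16.7%) and at 9.21% of all promoters. TATAAA was found at 15 of the 123 (12.2%) against 12.8% of all promoters, and the AP-1 site TGANTCA at 9 (7.32%) against 6.68%. Each motif was searched on both strands from 250 bases before to 50 after the start, and matches of different motifs were allowed to overlap.

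**Figure D3:**
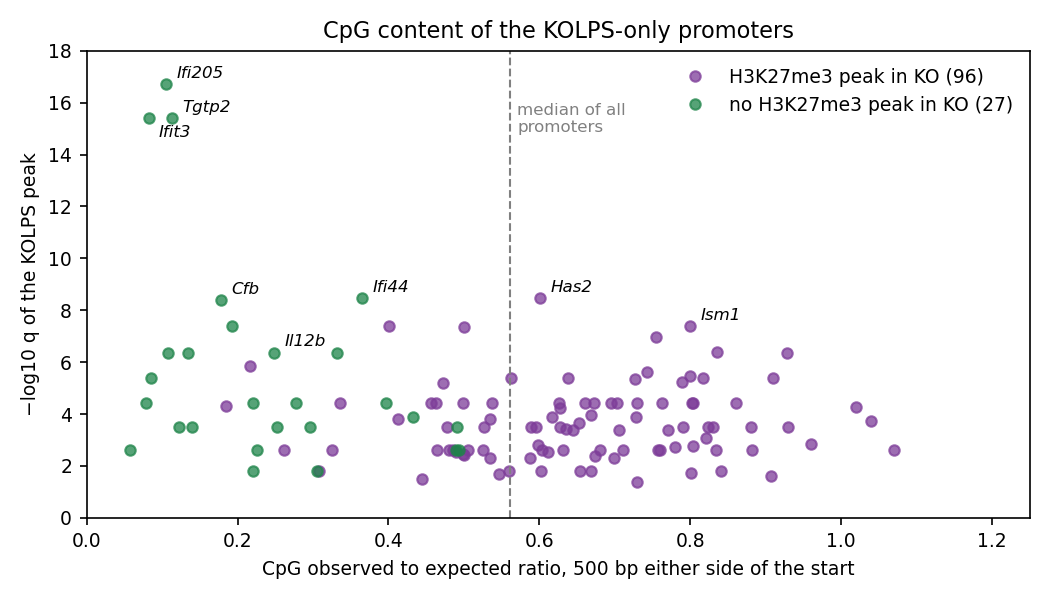
Each point is 1 of the 123 KOLPS-only promoters, with its CpG observed to expected ratio (x axis) and the −log10 q of its KOLPS peak (y axis), coloured by an H3K27me3 peak in KO; the dashed line is the median of all promoters, 0.561. The 27 promoters without H3K27me3 lie left of that line, and Ifi205, Ifit3 and Tgtp2 stand at the top.

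Other marks and factors were compared with their share of all promoters. The NF-κB subunit p65 had a peak at 3 of them in KOLPS (2.44%, against 1.95% of all promoters) and at 6 in WTLPS (4.88%, against 2.96%), and at 1 each without LPS in KO (0.813%, against 0.356%) and WT (0.813%, against 0.49%). The 3 in KOLPS were Cfb, Tgm2 and Slpi, a secreted protease inhibitor, and in WTLPS Il12b, Il27 and Cxcl3 were added. CTCF had a peak at 39 of the 123 in WT (31.7%, against 30.6% of all promoters) and at 15 in KO (12.2%, against 20%). The cohesin subunit SMC1 was found at 27 in WT (22%, against 31.8%) and at 9 in KO (7.32%, against 22.7%). H3K4me1, a mark of enhancers and of promoter flanks, was found at 47 in KO (38.2%, against 58.7%) and at 32 in KOLPS (26%, against 48.4%). STAT5 was found at 3 in KO (2.44%, against 3.4%). H3K27me3 was called at 63 of the 123 in KOLPS (51.2%), but the KOLPS list of that mark covered only 12.4% of all promoters, so a loss at single promoters cannot be read from it. For the same 123 promoters H3K27me3 was called at 96 in WT (78%, against 28.1% of all promoters) and at 89 in WTLPS (72.4%, against 21.6%).

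When the KOLPS-only promoters were compared with CTCF-WT cells, 29 of the 123 were WTLPS-only (23.6%, 16.9 to 31.8%), and these were 12% of the 241 WTLPS-only promoters (8.51 to 16.7%). A further 41 (33.3%) had a peak in both WT and WTLPS, 5 were WT-only and 48 (39%) had no peak in either. Of the 114 WTLPS-only promoters that lacked a KO peak, 25.4% were gained in KOLPS (18.3 to 34.1%). The share was 27.5% of the 149 promoters that lacked a KO peak but had one in both WT and WTLPS (21 to 35.2%), 7.14% of the 70 WT-only ones and 0.578% of the 8300 promoters that lacked a peak in KO, WT and WTLPS (0.436 to 0.766%). Hence promoters that had a CTCF-WT peak at both times were gained in KOLPS at a share close to that of the WTLPS-only ones. The remaining 127 WTLPS-only promoters already had a peak in KO, and 91 of them kept it in KOLPS.

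The 29 promoters gained with LPS in both genotypes had a median −log10 q of 5.34 in WTLPS and 4.25 in KOLPS, and KOLPS was below WTLPS at 19 of them, beside the 92.7% of all promoters with both peaks. Besides Ifi205, Ifi44, Il12b and Ism1, those of high KOLPS −log10 q included Ifi206, Lgr5, Onecut3, Eif3j2, Fbn1, Slpi, Tgtp1, Scn8a, Mast1 and Camkv. Ifi206, a further PYHIN gene, had 17.9 in WTLPS and 5.37 in KOLPS. Slpi had 13 and 4.41, and Tgtp1 had 7.82 and 4.41. The others carried H3K27me3 in KO, such as Lgr5, a receptor of stem cells, with 2.61 and 5.37, and Fbn1, a matrix fibrillin, with 2.61 and 4.41. In all, 20 of the 29 had H3K27me3 in KO, beside 28.7% of all promoters. H3K27ac in KO or KOLPS was found at 8 of the 29, beside 9943 of all 20807 promoters.

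The 41 KOLPS-only promoters with a peak in both WT and WTLPS had a median −log10 q of 5.1 in WT, 6.67 in WTLPS and 4.41 in KOLPS. WTLPS exceeded WT at 31 of the 41, beside 47.4% of the 11898 promoters with a peak in WT and WTLPS. It exceeded KOLPS at 32, beside 92.7% of all promoters with both peaks. They included Ifit3, Tgtp2, Oas2, Phf11a, Cfb, Il27, Tgm2 and Cxcl3. At the 41 promoters KO was the only list without a called peak. Some WT peaks were themselves near the smallest called height of 6 fragments, such as Ifit3 with 7 and Phf11a with 9. A missing call in KO is therefore not shown to be an absence of the mark.

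The 48 promoters without a peak in WT or WTLPS were mostly marked by H3K27me3. It was present in KO at 43 of them (89.6%), against 28.7% of all promoters. H3K27ac was called at 0 of the 48 in KO and in KOLPS, against 45.9% and 42.2% of all promoters. The ISRE core was found at 0 (interval up to 7.41%), which does not differ from the 3.58% of all promoters. The median CpG ratio was 0.654, beside 0.561 over all promoters. Ranked by −log10 q they were led by Ptprd, a receptor phosphatase of synapses, with 5.37, Ccdc3 with 5.24 and Ecel1 with 5.19. Cdh10, a cadherin, Hoxb9, Ppp1r36, Ric3, Setd4, Tfap2b and Zfp536 followed with 4.41 each, the value of a summit of 9 fragments. At Setd4 only 20 bp of the window were covered, by a peak that overlapped a KO peak outside it.

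**Figure D4:**
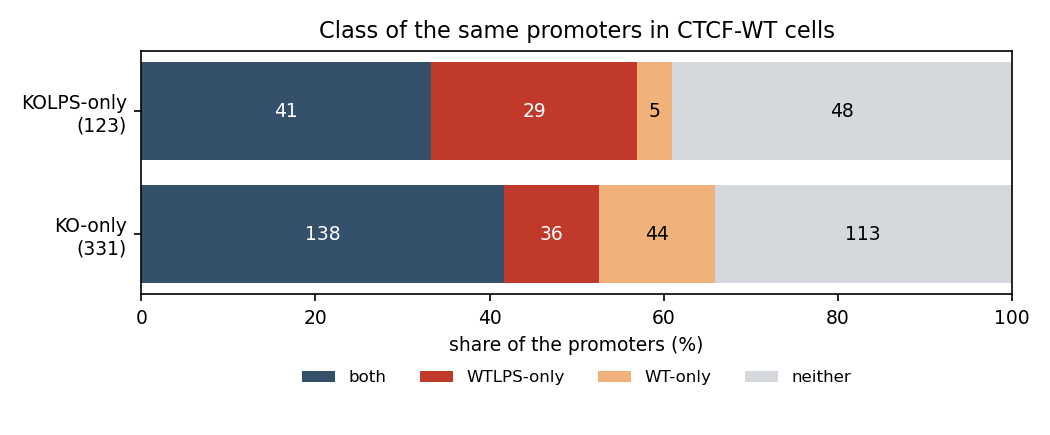
The share (x axis, %) of the 123 KOLPS-only and 331 KO-only promoters (y axis) that were shared, LPS-only, unstimulated-only or without a peak in CTCF-WT cells; numbers are promoters. Of the KOLPS-only promoters 29 were WTLPS-only, and of the KO-only promoters 44 were WT-only.

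WTLPS-only promoters that had no peak in either CTCF-KO list numbered 85. Named by rank, they were Wfdc18, Ffar2, Kcnj9, Cst7, Lcn2, Nt5c2, Il1rn, Marco, Cys1 and Kif26a. Lcn2, the iron-trapping lipocalin of the acute phase, had a WTLPS −log10 q of 10.3 over 2214 bp of the promoter. Il1rn, the antagonist of the interleukin-1 receptor, had 7.37 over 1426 bp, and Marco, a scavenger receptor, had 7.29 over 1076 bp. Cst7, cystatin F, had 10.7 over 920 bp. H3K27ac was called in KO and in KOLPS at Lcn2, Il1rn and Marco, while H3K4me3 was called in neither. Over all 241 WTLPS-only promoters H3K27ac was called at only 21 in KO and 29 in KOLPS. The shares over all promoters were 45.9% in KO and 42.2% in KOLPS. Wfdc18 and Ffar2 had 38.3 and 20.5, but only 44 and 48 bp of their windows were covered.

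KO-only promoters were the larger class, and their strongest members had peaks that reached past the window. The 10 of highest rank were Apom, Cutal, Lgals8, Spata1, Ovol3, Parp6, Sirt3, Rnaseh1, Zcchc7 and Mbd1, with −log10 q from 82.8 in Mbd1 to 118 in Apom. At each, the KO peak overlapped a KOLPS peak that lay outside the window, and at Apom 237 bp of the window were covered in KO. Such overlap was found at 36 of the 331 KO-only promoters and at 1 of the 123 KOLPS-only promoters. The other 295 KO-only promoters had a median −log10 q of 4.28 and a highest value of 18.8, and 118 of the 331 had a KOLPS peak within 10 kb of the start.

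Among the KO-only promoters without such an overlap the strongest, named after their values were seen, included Zfp993 with 18.8 in KO, Scel with 13.9, Nnat with 12.7, and Clec1a and Fkbp5 with 11.6. Scel, sciellin, had 6.07 in WT and 7.37 in WTLPS. Clec1a, a C-type lectin receptor, had 11.4 in WT and 8.43 in WTLPS, with H3K27ac in KO and KOLPS. Fkbp5, a co-chaperone induced by glucocorticoids, had 13.7 and 7.37. Nlrp1a, an inflammasome sensor, had 21.2 in WT, 19.2 in WTLPS, 10.4 in KO and no peak in KOLPS. H3K27me3 was present in KO at 175 of the 331 (52.9%, against 28.7% of all promoters) and H3K27ac at 80 (24.2%, against 45.9%). The median CpG ratio was 0.377, between those of the shared promoters (0.74) and of the promoters without a peak in KO or KOLPS (0.197).

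In CTCF-WT cells 138 of the 331 KO-only promoters (41.7%) had a peak in both lists, 44 were WT-only (13.3%), 36 were WTLPS-only (10.9%) and 113 had none (34.1%). The 44 were 27.5% of the 160 WT-only promoters. Of the 90 WT-only promoters with a KO peak, 48.9% were KO-only (38.8 to 59%), compared with 1.17% of the 11749 with a peak in KO and in both CTCF-WT lists (0.995 to 1.39%). The share was 54.3% of the 208 with a KO peak and none in WT or WTLPS (47.5 to 61%). It was 28.3% of the 127 WTLPS-only ones with a KO peak (21.2 to 36.7%). Hence a KO peak was lost about as often without any CTCF-WT peak as at the WT-only promoters.

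Cytokine promoters were split among the classes. Of 29 cytokine genes, 16 had a peak in both CTCF-KO lists, 3 were KOLPS-only (Il12b, Il27 and Il33), 2 were KO-only and 8 had none. Over all promoters 56.9% were shared, 0.591% KOLPS-only and 1.59% KO-only. The shared part of the cytokine and chemokine lists was therefore close to that of all promoters. Il10, the anti-inflammatory interleukin, was KO-only with 5.21, and had 5.1 in WT and no peak in WTLPS. Il18, which is processed by inflammasomes, was KO-only with 5.21, but had 11.4 in WT and 19.2 in WTLPS. Il6 had 8.25 in KO and 14.2 in KOLPS, beside 13.7 in WT and 44.8 in WTLPS, and Il12a, the p35 chain of IL-12, had 13.9, 16.7, 22.5 and 34.4. Thus of the IL-12 chains Il12a had a peak in all 4 lists, while Il12b had one only with LPS. Of 20 chemokine genes 11 were shared and 1, Cxcl3, was KOLPS-only. Ccl4, named after its values were seen, had 4.68 in KO and 11.8 in KOLPS, beside 10 in WT and 43.3 in WTLPS. Of 34 LPS-induced enzymes and effectors 24 were shared, Cfb was KOLPS-only, and Plat, tissue plasminogen activator, was KO-only with 4.13.

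Of 55 interferon-stimulated genes 46 were shared, 5 were KOLPS-only (Ifi205, Ifit3, Ifi44, Oas2 and Ms4a4c), 0 were KO-only and 4 had no peak. The 5 may be read beside the 0.591% of all promoters that were KOLPS-only. Each promoter was ranked within a list by the −log10 q of its strongest peak, as a percentile of the promoters with a peak. The median change from KO to KOLPS over the 46 genes was 22.4 points, and 41 of them ranked higher in KOLPS. Over all 11843 shared promoters the median was -0.775, and 5462 ranked higher in KOLPS. From WT to WTLPS the median was 18.3 points over 48 genes, of which 45 ranked higher. Over all 11898 promoters shared by WT and WTLPS it was 0.469, and 6185 ranked higher. Neighbours such as Tap1 and Psmb9 had the same strongest peak and do not count as separate observations.

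Rsad2, which encodes the antiviral enzyme viperin, had 3.38 in KO and 37.2 in KOLPS, beside 11.4 in WT and 87.4 in WTLPS, and 2506 bp more of its promoter were covered in KOLPS than in KO. In the same order Oas3 had 5.21, 32.9, 36.4 and 110, and Ifit1 had 12.7, 53.9, 25.2 and 99.6. Cmpk2, a mitochondrial nucleotide kinase next to Rsad2, had 20.9, 54.5, 43.8 and 114. Isg15, the ubiquitin-like modifier, had 44.2, 60.2, 62.5 and 108. Oas3, Isg15 and Phf11d were named after their values were seen. At Rsad2, Oas3, Ifit1, Cmpk2 and Isg15 the LPS list exceeded its unstimulated list in both genotypes, while KOLPS exceeded KO at 7.12% of all shared promoters. Phf11d was WTLPS-only in CTCF-WT cells with 13.1, whereas it had 8.25 in KO and 17.9 in KOLPS.

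Across the 11611 promoters with a peak in all 4 lists, the rank change in CTCF-KO cells and that in CTCF-WT cells were weakly related (Pearson's r = 0.173, Spearman's rho = 0.132, across promoters, which are not independent replicates). In this set 40 of 45 interferon-stimulated genes ranked higher with LPS in both genotypes, compared with 3018 of all 11611 promoters.

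**Figure D5:**
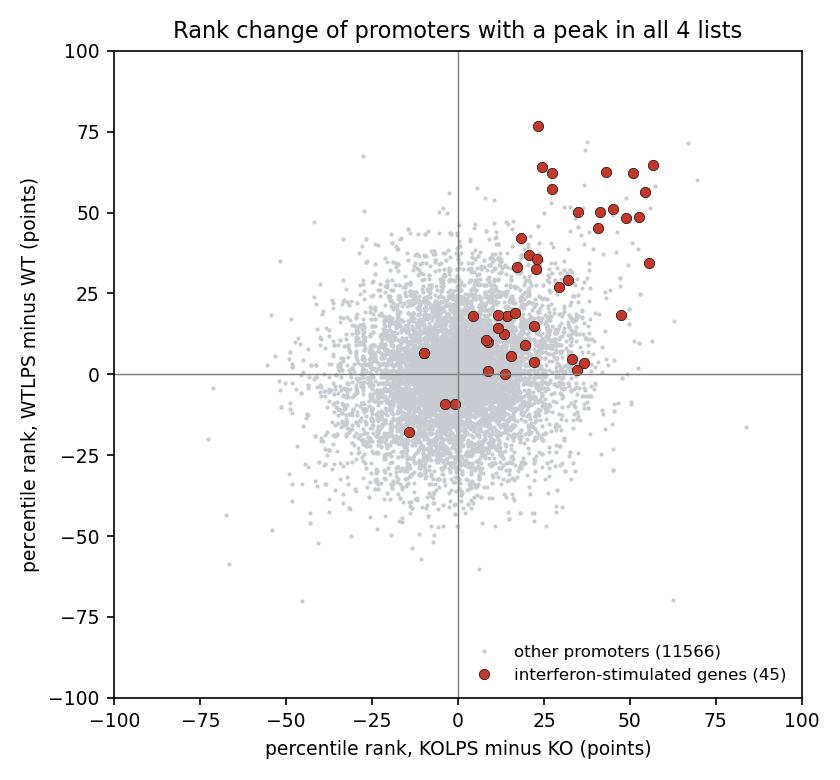
Change of percentile rank from KO to KOLPS (x axis, points) and from WT to WTLPS (y axis, points) for the 11611 promoters with a peak in all 4 lists, with 45 interferon-stimulated genes in red. Of these, 40 lie in the upper right part, where the rank was higher with LPS in both genotypes.

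Covered promoter bases were more in KOLPS than in KO at 24 of the 46 shared interferon-stimulated genes (52.2%), beside 12.5% of all shared promoters. Among the 8 largest such differences, 5 were on the interferon list: Rsad2, Ifit1, Slfn1, Cmpk2 and Xaf1. After Rsad2 came Ifit1 (2046 bp), Slfn1 (1947 bp), Ifit1bl2 (1918 bp), Cmpk2 (1539 bp), Pml (1504 bp), Sobp (1418 bp) and Xaf1 (1293 bp). Ifit1 and Ifit1bl2 had the same strongest peak. Pml, the scaffold of nuclear bodies, differed by -157 bp from WT to WTLPS. Its −log10 q, however, was 24.1 in KO and 24.5 in KOLPS, beside 48.4 in WT and 110 in WTLPS. The median change over promoters with a peak in all 4 lists was -427 bp from KO to KOLPS and -183 bp from WT to WTLPS. The largest falls were at Zbtb7b (-2856 bp), Pigb, Mpzl2, Igflr1, Mpdu1, Man2a2, Ick and Smo (-2260 bp). Zbtb7b, the transcription factor ThPOK, had -222 bp in CTCF-WT cells, and its −log10 q was 13.9 in KO and 7.4 in KOLPS, beside 191 in WT and 145 in WTLPS. At Igflr1 and Ick the strongest peak had its summit outside the window in at least 1 CTCF-KO list.

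The position of the strongest peak differed among the promoters of largest rank change. Among the 8 largest rises of rank, the strongest peak had its summit inside the window in both lists at Sp100, Oas1c, Bst2 and Eif2b5, while it lay outside in at least 1 list at B4galt2, Cd68, Csrnp1 and Amdhd2. Bst2, which encodes tetherin, had 56.6 in KO and 74.9 in KOLPS, beside 64.2 in WT and 163 in WTLPS, and ranked 56.7 points higher with LPS in CTCF-KO cells and 64.7 in CTCF-WT cells. For Oas1c these differences were 57.4 and 58.2 points. They were 62.9 and 16.6 points for Sp100, a nuclear body protein, and 56.5 and 10.4 points for Eif2b5, a translation initiation factor subunit. Among the 8 largest falls (Msh5, Mylpf, Catsperz, Acbd7, March9, Kif5a, Ppm1m and H2-Aa) only H2-Aa had its summit inside the window in both lists. H2-Aa, an MHC class II chain, had 102 in KO and 32.9 in KOLPS, beside 51.5 in WT and 59 in WTLPS.

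Polycomb targets were found in both the KOLPS-only and the KO-only class. Of 94 developmental regulators, 92 carried H3K27me3 in KO, 44 had an H3K4me3 peak in both CTCF-KO lists, 6 were KOLPS-only, 7 were KO-only and 37 had none. Over all promoters 0.591% were KOLPS-only and 1.59% KO-only. The 6 were Hoxb5, Hoxb9, Hoxd11, Six2, Msx1 and Evx2, with KOLPS −log10 q from 2.39 in Msx1 to 4.41 in Hoxb9 and Evx2. The 7 were Hoxa10, Hoxa11, Hoxc5, Hoxd3, Hoxd9, Sox1 and Zic2, with KO values from 1.46 in Sox1 to 9.33 in Zic2. In CTCF-WT cells 8 of the list were WTLPS-only and 7 WT-only. Of the 6, Hoxb5 and Six2 were WTLPS-only, Evx2 and Msx1 had a peak in both CTCF-WT lists, and Hoxb9 and Hoxd11 had none.

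Several lists had no KOLPS-only or KO-only member. Only 0.591% and 1.59% of all promoters were in these classes, so in lists of this size the absence sets none of them apart. A peak in both CTCF-KO lists was called at 56.9% of all promoters. All 73 ribosomal protein promoters had a peak in KO and KOLPS. So did 19 of 20 NF-κB subunits and inhibitors, 26 of 27 immediate early factors, 23 of 27 genes of the TLR pathway, 23 of 25 dendritic cell activation genes and 14 of 16 H3K4 methyltransferases and demethylases, and the others had a peak in neither. The median rank change from KO to KOLPS was -7.17 points for the TLR pathway and 2.28 for the NF-κB list, beside -0.775 for all shared promoters. From WT to WTLPS it was -0.881 and 4.57 points, beside 0.469 for all promoters shared by these 2 lists.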

How the data were processed

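H3K4me3 ChIP-seq of BMDCs was used from 4 conditions, 1 deposited peak list each; the other deposited lists gave marks and factors. Per the paper's methods the authors trimmed reads, used BWA for alignment and Picard against duplicates, and called peaks with MACS2 in paired-end mode; the submitters' processing notes name BWA 0.7.12, Picard 1.77 and MACS2 2.1.2. The deposited values are a fold (ratio) over background, a −log10 p-value and a −log10 q-value per peak. The paper's methods give later versions of these tools. The study had 2 biological replicates per condition, and its reporting summary says that replicates were merged, without naming the deposited lists; its read totals per library were not used here, and depth was compared through the background of each list.

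All peaks ended within GRCm38 chromosomes. From fold and −log10 p below 25, the whole number of fragments at the summit was recovered (at least 99.99% of peaks, tolerance 0.002). Promoter classes, fragment recovery and thinning were tested on simulated data. Counts, shares and ranks were computed with Python 3 and numpy; no test between conditions was made. Named genes: the 15 KOLPS-only and 10 KO-only of highest −log10 q, the 8 largest rises and falls of rank and of covered bases, the 15, 10 and 10 highest of the classes set beside CTCF-WT, members of gene lists that changed class, the 3 nearest the limit, and Ctcf, Il12b, Il6 and Il12a; unnamed gene models were left out, and some genes the rule chose are not reported here. The sequences of Apom and Cutal, which the same rule chose, are not shown. Members and lists were chosen with earlier results of these data known.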

Additional observations from a re-analysis of the deposited data

Results flagged for a closer look

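At 36 promoters the change with LPS went in opposite directions: the H3K4me3 peak was lost from KO to KOLPS and gained from WT to WTLPS. At 5 promoters it was gained from KO to KOLPS and lost from WT to WTLPS. The difference was not tested in either case, since there was 1 list per condition. The median −log10 q of the 36 was 4.28 in KO and 4.14 in WTLPS, and Il13, Thy1, Hoxa10, Hoxd9 and Jam3 were among them. Of the 36, 23 carried H3K27me3 in KO. That mark was present in KO at 28.7% of all promoters, 175 of the 331 KO-only and 180 of the 241 WTLPS-only promoters. The 5 were Dhh, Gm7102, Gpr149, Has2 and Wnt3, and 4 of them carried H3K27me3 in KO, beside 96 of all 123 KOLPS-only promoters. At Amigo3, Ece2, Fstl3, Mbd1, Shld1 and Dhh the peak of at least 1 genotype overlapped a peak of its other list outside the promoter. All of these genes except Has2, Hoxa10, Hoxd9 and Mbd1 were named after their values were seen.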

How the results depend on the processing

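Of 102 values of the 8 main results under the alternatives, 85 stayed within 1.5 times the reported count or within the interval of the reported share. With a −log10 q of at least 10 in every list, 72 promoters were KOLPS-only, 95.9% of KO promoters were kept and 7.69% of WTLPS-only promoters were KOLPS-only. When only the called peak had to reach that value, 3 promoters were KOLPS-only, 44 KO-only, 19 WTLPS-only and 23 WT-only, 99.6% were kept, and 1 promoter, Ifi205, was gained in both genotypes, which is 5.26% of the WTLPS-only and 33.3% of the KOLPS-only ones. With a summit inside the promoter 199 were KOLPS-only. With no peak of the other list within 10 kb, 213 were KO-only, 95 WT-only and 98.2% were kept. The share kept was 97.6% with the starts of all transcripts and 96.9% without promoters that overlap another one. Leaving out promoters whose peak overlaps a peak of the other list, an alternative chosen after seeing the data, gave 97.6% kept and 295 KO-only promoters. Thinning KO to the background of KOLPS gave an expected 322 KO-only and 128 KOLPS-only promoters. Of 78 shares for marks and factors, 20 stayed within the interval of the reported share. The stricter peak left 3 KOLPS-only promoters, with H3K27me3 in KO at 0 (reported share 78%) and H3K27ac in KOLPS at 3 (reported share 13%). It left 44 KO-only promoters, with H3K27me3 in KO at 10 (22.7%, reported share 52.9%). All 5 values for CpG ratio and covered bases stayed within the quartiles. The causes were not tested.

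Peaks near the smallest called height of 6 fragments limit what single promoters show, since the mark below that height is not called. No paired analysis was possible because each condition had 1 list.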
